A study of Mus musculus with 25 samples.

Results

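A set of 40 sarcomere and Z-disc genes was examined in the left ventricle of 25 mice. The set was listed by gene symbol from the proteins' known places in the contractile apparatus. No measured value entered the rule, but the list was drawn up with earlier results of these data known, so it was not chosen blind to them. All 40 were found among the 35969 genes of the table. They comprised 4 genes of the thick filament, 10 of the thin filament, 5 for titin, the M-band and proteins tied to titin, 11 of the Z-disc, 4 of the intermediate filaments and intercalated disc, and 6 for myosin folding and protein turnover.

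All mice were male littermates, WT or GPx4+/- (1 disrupted allele of glutathione peroxidase 4, the enzyme that detoxifies lipid peroxides), kept by backcross to C57BL6/J. They entered at 8 to 10 weeks of age and ate a control chow (CNTL, 6% of energy as fat) or a high fat high sucrose diet (HFHS, 35.5% of energy as fat and 38% as sucrose) for 16 weeks. The HFHS diet was lard-based and also held cholesterol. Each of the 5 groups held 5 mice: WT and GPx4+/- on CNTL, WT and GPx4+/- on HFHS, and WT HFHS + Carnosine, which also drank 80 mM L-carnosine, a histidine-containing dipeptide, from week 7. The GPx4+/- HFHS mice given carnosine were not analysed here. The tissue was a bulk piece of left ventricle by the labels' protocol, though atrial markers were high in some mice, as given below. In such bulk tissue, fewer cardiomyocytes and less RNA per cardiomyocyte cannot be told apart in any of the values below.

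In the sarcomere, myosin thick filaments pull on actin thin filaments, and calcium sets the thin filament's state through the troponin complex and tropomyosin. The thin filaments are anchored at the Z-disc, the thick filaments are cross-linked at the M-band, and titin spans from one to the other as a molecular spring. Z-disc and turnover proteins are known to sense load in heart muscle, and the adult mouse ventricle is known to use cardiac isoforms of the troponins and the ventricular myosin light chains.

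Values are scaled TPM, the deposited transcripts per 1000000 summed over a gene's transcripts and divided by a scaling factor per library (from 0.864 to 1.16), because mitochondrial transcripts took from 31.3% to 48.7% of the TPM of a library. TPM is corrected for transcript length, so levels of different genes can be compared, but it keeps no read depth and no counting error is given. Differences were tested with limma on log2(scaled TPM + 0.5) over the 11984 genes whose mean reached 1 scaled TPM, with Benjamini-Hochberg adjustment over all of them. "Called" means an adjusted p under 0.05, and a log2 fold change on this scale understates the change of low genes. Of the 40 genes, 39 passed the filter, and Tnni1 did not.

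Gpx4 checked the genotype labels: it lay between 250.5 and 382.8 scaled TPM in the 10 GPx4+/- mice and between 590.7 and 777.7 in the 15 WT mice. All 6 ventricular cardiomyocyte markers were expressed in every library, with a summed level between 34120 and 43070 scaled TPM (Myl2 and Myl3 of the set are 2 of them), whereas Myh1, Myh2 and Myh4, the fast skeletal myosins, did not exceed 0.0997. Of the 14 skeletal muscle markers 4 had a mean of at least 1 scaled TPM, namely Eno3 (819.4 to 1245, an enolase that heart muscle also uses), Mybpc2 (0.932 to 16.0), Tnni2 (at most 3.09) and Mylpf (at most 2.41). Atrial markers stood out in single mice: Myl7, the atrial light chain, exceeded 100 scaled TPM in 5 mice (WT CNTL 3, GPx4+/- CNTL 1 and 2, GPx4+/- HFHS 4 and WT HFHS + Carnosine 2). The counts of members called were repeated without these mice. GPx4+/- CNTL 2 also held 736.4 scaled TPM of Alb, the liver's albumin, against at most 40.8 in any other mouse.

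The ventricular genes of the set were among the most abundant messages of the tissue. Myl2, the regulatory light chain of ventricular myosin, was first, between 10411 and 15259 scaled TPM over the 25 mice. Cardiac troponin T (Tnnt2) had a mean of 6923, alpha-tropomyosin (Tpm1) of 6645, the essential light chain Myl3 of 6037, cardiac troponin I (Tnni3) of 4618 and troponin C (Tnnc1) of 2797 scaled TPM. Then came the small heat shock protein Cryab (2113), telethonin (Tcap, 1935), muscle LIM protein (Csrp3, 1632) and Fhl2 (1285), a LIM protein of the Z-disc and I-band. Titin (Ttn) had a mean of 97.3 scaled TPM and ranked 26 of 40. At the other end were slow skeletal troponin T (Tnnt1, mean 9.04) and slow skeletal troponin I (Tnni1, mean 0.351), the skeletal partners of the cardiac pair. Each slow skeletal gene lies beside a cardiac one on its chromosome: Tnnt1 (chromosome 7, 4504570 to 4516382, minus strand, GRCm38) lies 1922 bases from Tnni3, and Tnni1 lies 25364 bases from Tnnt2 on chromosome 1.

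Mice of a group agreed closely for some members and poorly for others. The mean within-group coefficient of variation was 3.97% for Myom1 (myomesin, a cross-linker of the M-band), 4.86% for Trim55 and 5.22% for Myoz2. It was 38.3% for Pdlim3, 34.7% for Myot, 31.8% for Tpm2 and 95.5% for Tnni1.

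**Figure D1:**
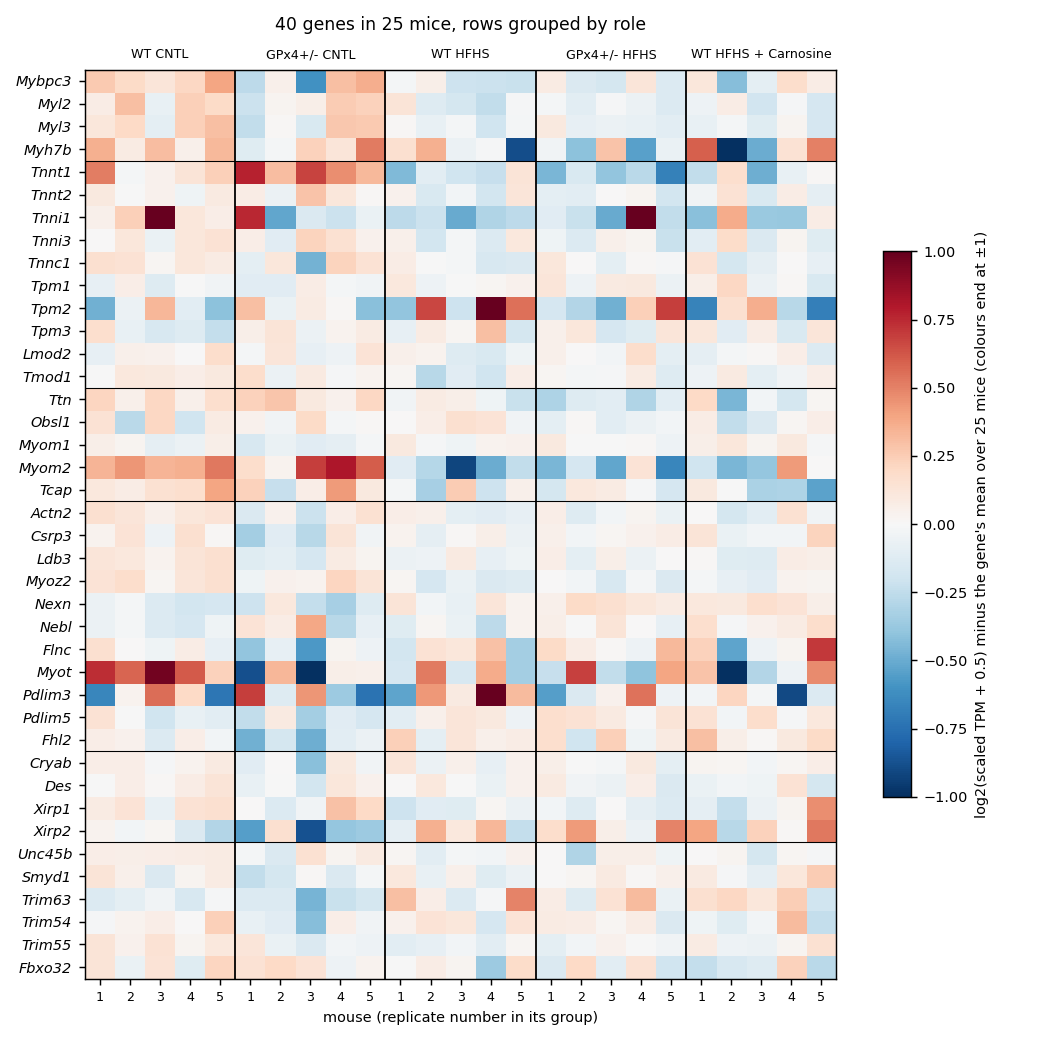
Heat map of the 40 genes (rows, grouped by role) in the 25 mice (columns, 5 per group). Colour is log2(scaled TPM + 0.5) minus the gene's mean over all mice, and the colours end at plus or minus 1. Most rows are pale, while Tnni1, Tpm2, Pdlim3 and Myot carry single dark cells. Myom2 and Tnnt1 are mostly red in the CNTL groups and mostly blue on HFHS, with single HFHS mice on the red side.

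Summed over the 40 genes, the set held a smaller share of the non-mitochondrial TPM on HFHS in WT. The share was 9.385%, 9.44%, 9.427%, 9.518% and 9.799% in the WT CNTL mice and 8.568%, 8.418%, 8.761%, 8.434% and 8.457% in the WT HFHS mice. Every WT HFHS mouse thus lay below every WT CNTL mouse. Between the same groups the median summed level of the 4 ventricular cardiomyocyte markers outside the set (Myh6, Actc1, Pln and Ryr2) went from 21030 to 18866 scaled TPM, that of the endothelial markers from 209.2 to 226.3, of the fibroblast markers from 350.1 to 396.2 and of the smooth muscle markers from 202.6 to 284.1. In GPx4+/- the same medians went from 18796 to 19266, from 210.7 to 225.4, from 378.4 to 436.5 and from 197.7 to 229.1. The part of these cell types in the share, and in the diet values below, was not tested. In GPx4+/- the CNTL mice were spread more widely, at 8.585%, 8.544%, 9.19%, 9.891% and 9.786%, and the HFHS mice, from 8.433% to 8.771%, overlapped the lower end of that range. WT HFHS + Carnosine mice lay between 8.137% and 8.855%. The share is a sum led by the 10 most abundant genes, and since the set was chosen with results of these data known it is given without a test.

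**Figure D2:**
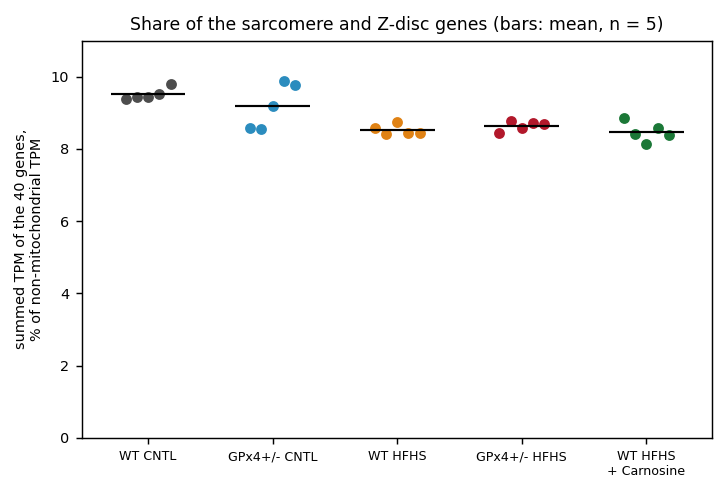
Summed TPM of the 40 genes as a percent of non-mitochondrial TPM (vertical axis, from 0) in each mouse (points) of the 5 groups, with group means (bars). The WT CNTL mice lie at 9.385% or more and the WT HFHS mice at 8.761% or less.

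The HFHS diet changed few of these genes, and the changes ran both ways. Over both genotypes it lowered Tnnt1, the M-band gene Myom2, Ttn, Myoz2 and Xirp1, and raised Nexn, Xirp2 and Trim63. These were 8 of the 39 tested members, 5 lower and 3 higher, where 8.33% of all 11984 genes were called, 3.65% as lower and 4.68% as higher. In WT alone 2 members were called, both lower, against 1.18% of all genes (0.526% as lower and 0.659% as higher). In GPx4+/- alone 5 were called, 3 lower and 2 higher, against 3.34% of all genes (1.16% as lower and 2.18% as higher). Without WT CNTL 2, 4 or 5 no member was called in WT, and without GPx4+/- CNTL 1, 3 or 4 the count in GPx4+/- was 3. The share of all genes called in these fits is not given, so a fall across all genes cannot be told apart from a fall in the members. The median log2 fold change of the tested members was -0.08 in WT, -0.01 in GPx4+/- and -0.04 over both genotypes, beside 0.000, -0.002 and -0.002 over all genes.

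Some calls depended on the scaling. With TPM as deposited, all 7 members called over both genotypes and all 5 called in GPx4+/- were lower, and the higher genes Nexn, Xirp2 and Trim63 and the lower gene Xirp1 were not among them, while the median of all genes in GPx4+/- moved to -0.101 on the log2 scale and that over both genotypes to -0.052. At this setting 5.95% of all genes were called over both genotypes, 142 of 714 as higher, and 3.53% in GPx4+/-, 37 of 424 as higher, so most called genes of any kind were lower. With TPM as deposited the log2 fold changes of the higher genes over both genotypes were 0.16 for Nexn, 0.35 for Xirp2 and 0.21 for Trim63, beside 0.22, 0.40 and 0.26 on scaled TPM. With quantile normalization 12 members were called over both genotypes, 4 higher and 8 lower, and all 8 genes named above were among them, where 1044 of all 11984 genes were called, 535 as higher. Without the 5 mice high in Myl7, 9 were called, 3 higher and 6 lower, 7 of them among those 8, where 7.36% of all genes were called, 509 of 882 as higher.

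**Figure D3:**
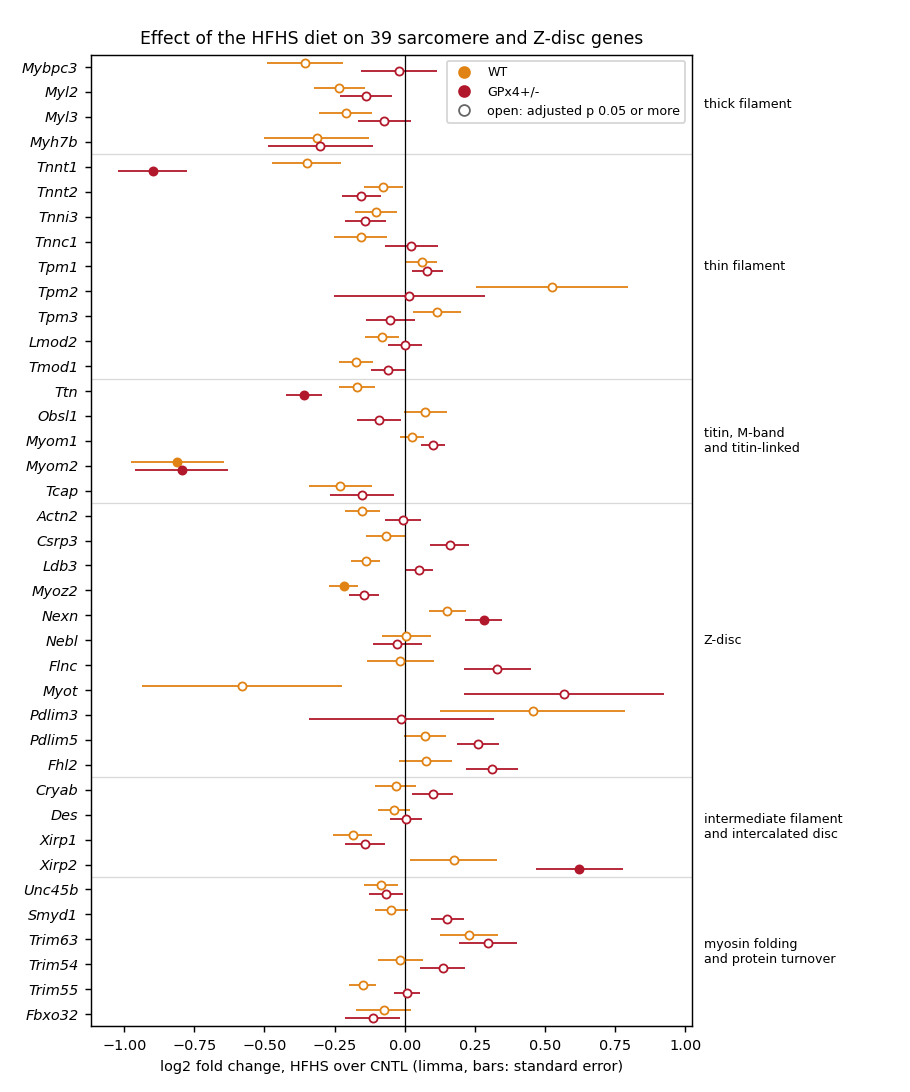
Log2 fold change of HFHS over CNTL (horizontal axis) with its standard error (bars) for the 39 tested members, grouped by role, in WT (orange) and GPx4+/- (red). Filled points have an adjusted p under 0.05: Myom2 in both genotypes, Myoz2 in WT, and Tnnt1, Ttn, Nexn and Xirp2 in GPx4+/-.

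The genes of the thick filament were lower on HFHS in each genotype, but none was called with the main settings. Over both genotypes the log2 fold changes of the 4 genes ran from -0.31 to -0.14. Myl2 was nearest to the threshold (log2 fold change -0.19, SE 0.065, limma adjusted p = 0.0824) and was called without the 5 mice high in Myl7, as it was with TPM as deposited, quantile normalization and array weights. Myl3 had a log2 fold change of -0.14 over both genotypes and was called with quantile normalization (-0.22, limma adjusted p = 0.0284). Mybpc3, the myosin-binding protein C that tunes cross-bridge cycling, had 1363, 1300, 1236, 1311 and 1491 scaled TPM in WT CNTL and 1118, 1183, 986, 981 and 975 in WT HFHS. These 2 groups did not overlap, yet the limma adjusted p was 0.193. In GPx4+/- CNTL the same gene ran from 747.9 to 1458 and covered the whole range of GPx4+/- HFHS, 1005 to 1234. Myh7b, a myosin heavy chain gene known mainly as the host of a muscle microRNA, had a log2 fold change of -0.31 over both genotypes (limma adjusted p = 0.159).

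Among the thin filament genes, Tnnt1 was the only one called for diet with the main settings. Its scaled TPM was 12.6, 8.62, 9.03, 9.56 and 10.4 in WT CNTL and 6.28, 8.09, 7.56, 7.36 and 9.59 in WT HFHS. In GPx4+/- it was 15.2, 10.9, 14.2, 12.2 and 11.1 on CNTL and 6.22, 7.82, 6.5, 7.15 and 5.27 on HFHS. The GPx4+/- groups were fully apart, with the highest HFHS mouse below the lowest CNTL mouse, while the WT groups overlapped. The GPx4+/- HFHS mean was 51.8% of the GPx4+/- CNTL mean (log2 fold change -0.90, SE 0.123, limma adjusted p = 0.00114), and the log2 fold change in WT was -0.35 (limma adjusted p = 0.161). Over both genotypes it was -0.62 (SE 0.087, limma adjusted p = 0.000229), and Tnnt1 stayed called with each of the 20 mice left out in turn. Its neighbour Tnni3 had a log2 fold change of -0.12 over both genotypes (limma adjusted p = 0.157).

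None of the abundant thin filament genes was called on scaled TPM, and Tnnt2 was called lower in GPx4+/- and over both genotypes with TPM as deposited. Over both genotypes the log2 fold change was -0.12 for Tnnt2, 0.07 for Tpm1 and -0.07 for Tnnc1, with limma adjusted p of 0.154, 0.29 and 0.586. Lmod2 and Tmod1, which act at the pointed end of the thin filament, Tmod1 as its cap, had values of -0.04 and -0.12. Tmod1 was called lower over both genotypes with TPM as deposited and with quantile normalization. Of the 9 tested thin filament genes 3 were higher and 6 lower over both genotypes, with a median log2 fold change of -0.07.

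Of the 5 genes for titin, the M-band and titin-linked proteins, Myom2 and Ttn were called, both lower on HFHS. Myom2, which encodes M-protein, a cross-linker of myosin at the M-band, had 345, 369, 346, 348 and 392 scaled TPM in WT CNTL and 251.6, 224, 144, 193 and 230 in WT HFHS. No value was shared between those groups. In GPx4+/- it had 308, 280, 441, 477 and 415 on CNTL and 198, 242, 190, 300 and 173 on HFHS, which overlapped at 1 mouse. The HFHS mean was 57.9% of the CNTL mean in WT (log2 fold change -0.81, SE 0.165, limma adjusted p = 0.021) and 57.5% in GPx4+/- (log2 fold change -0.80, limma adjusted p = 0.0121). Myom2 was the only member called in both genotypes. The WT call was lost without WT CNTL 2, 4 or 5, with the highest adjusted p at 0.0673 from limma. Myom1, the other myomesin of the set, had log2 fold changes of 0.03 in WT and 0.10 in GPx4+/-, neither of them called.

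Ttn, the molecular spring, had 112, 99.7, 112, 100 and 109 scaled TPM in WT CNTL and 94.1, 102, 101, 93.5 and 82.8 in WT HFHS. In GPx4+/- it had 113, 117, 103, 99.3 and 111 on CNTL and 78.0, 88.0, 89.8, 78.3 and 89.6 on HFHS, and these groups did not overlap. The log2 fold change was -0.36 in GPx4+/- (SE 0.064, limma adjusted p = 0.00509), -0.17 in WT (limma adjusted p = 0.189) and -0.27 over both genotypes (limma adjusted p = 0.00123). Without the 5 mice high in Myl7 the log2 fold change in GPx4+/- was -0.28 with an adjusted p of 0.0656 from limma, and Ttn remained called over both genotypes. Tcap, which caps the titin end in the Z-disc, had a log2 fold change of -0.19 over both genotypes (limma adjusted p = 0.144).

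Z-disc genes divided between lower and higher values. Myoz2, which encodes calsarcin-1, an alpha-actinin binding inhibitor of calcineurin, had 817, 839, 754, 811 and 831 scaled TPM in WT CNTL and 754, 664, 712, 675 and 681 in WT HFHS. The groups met at 754, where the lowest CNTL mouse lay just under the highest HFHS mouse. In GPx4+/- the range was 722.7 to 865.1 on CNTL and 667.2 to 746.0 on HFHS. The log2 fold change was -0.22 in WT (SE 0.053, limma adjusted p = 0.049), -0.15 in GPx4+/- (limma adjusted p = 0.142) and -0.18 over both genotypes (limma adjusted p = 0.00562). The WT value held its call in 5 of the 20 fits that left out 1 mouse, and the value over both genotypes in all 20.

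Nexn, the actin-binding Z-disc protein nexilin, moved the other way. It had 251, 258, 238, 230 and 232 scaled TPM in WT CNTL and 286, 257, 248, 285 and 267 in WT HFHS. In GPx4+/- it had 226, 281, 221, 208 and 239 on CNTL and 271, 299, 292, 283 and 277 on HFHS. Of the GPx4+/- CNTL mice only 1, the mouse with liver transcripts, reached the HFHS range. The log2 fold change was 0.28 in GPx4+/- (SE 0.066, limma adjusted p = 0.0227), 0.15 in WT (limma adjusted p = 0.258) and 0.22 over both genotypes (limma adjusted p = 0.00711). The call in GPx4+/- was lost without GPx4+/- CNTL 1, 3 or 4 or GPx4+/- HFHS 3 (limma adjusted p up to 0.0637), and the one over both genotypes held with each mouse left out.

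The other Z-disc members were not called with the main settings. Pdlim5 and Fhl2, both LIM-domain proteins, had log2 fold changes of 0.17 and 0.19 over both genotypes (limma adjusted p = 0.0549 and 0.0756), and Csrp3 had 0.05. Pdlim5 was called higher in GPx4+/- and over both genotypes without the 5 mice high in Myl7, and Fhl2 in both comparisons with quantile normalization. Actn2, the alpha-actinin that cross-links actin in the Z-disc, had -0.15 in WT and -0.01 in GPx4+/-. Ldb3, which encodes the alpha-actinin partner cypher, had -0.14 in WT and 0.05 in GPx4+/-. Over both genotypes 6 of the 11 Z-disc genes were higher and 5 lower.

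Of the genes for intermediate filaments and the intercalated disc, the 2 Xin repeat proteins, which bind actin at the intercalated disc, were called in opposite directions. Xirp2 had 74.9, 71.7, 74.0, 65.9 and 59.3 scaled TPM in WT CNTL and 68.6, 93.3, 78.5, 91.8 and 61.8 in WT HFHS. In GPx4+/- it had 49.8, 81.7, 39.6, 55.6 and 56.6 on CNTL and 82.6, 98.1, 75.9, 70.0 and 103 on HFHS. Apart from 1 GPx4+/- CNTL mouse at 81.7, the GPx4+/- groups were separate, and the WT groups overlapped. The log2 fold change was 0.62 in GPx4+/- (SE 0.155, limma adjusted p = 0.0342), 0.17 in WT (limma adjusted p = 0.618) and 0.40 over both genotypes (limma adjusted p = 0.0295). The call in GPx4+/- was lost in 7 of 20 fits with a mouse left out, those without GPx4+/- CNTL 1, 3, 4 or 5 or GPx4+/- HFHS 1, 2 or 5, with adjusted p up to 0.0966 from limma. It was also lost with no filter, with TPM as deposited and with quantile normalization. The call over both genotypes was lost in 5 of 20 such fits, without WT CNTL 5, GPx4+/- CNTL 1, WT HFHS 2, WT HFHS 4 or GPx4+/- HFHS 5 (limma adjusted p up to 0.0579).

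Xirp1 lay between 41.7 and 49.1 scaled TPM in WT CNTL, between 37.9 and 44.4 in WT HFHS, between 39.9 and 54.0 in GPx4+/- CNTL and between 39.8 and 43.9 in GPx4+/- HFHS. Its log2 fold change over both genotypes was -0.16 (SE 0.050, limma adjusted p = 0.0467), and the call held in 5 of 20 fits with a mouse left out. Desmin (Des), the intermediate filament that ties Z-discs together, and its chaperone Cryab had log2 fold changes of -0.02 and 0.03 over both genotypes, and neither was called.

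The genes for myosin folding and protein turnover held 1 call. Trim63, which encodes the muscle ubiquitin ligase MuRF1, had 114, 117, 122, 111 and 124 scaled TPM in WT CNTL and 153, 130, 113, 124 and 176 in WT HFHS. In GPx4+/- it had 113, 114, 90.1, 107 and 111 on CNTL and 132, 114, 138, 156 and 119 on HFHS. Each HFHS mouse lay above each CNTL mouse in GPx4+/-, by a narrow margin at 114. The log2 fold change was 0.26 over both genotypes (SE 0.073, limma adjusted p = 0.0291), 0.23 in WT and 0.30 in GPx4+/- (limma adjusted p = 0.27 and 0.122). It was no longer called without the 5 mice high in Myl7, with no filter, or without WT CNTL 4, GPx4+/- CNTL 3 or GPx4+/- HFHS 4. Fbxo32, which encodes the ligase atrogin-1, had a log2 fold change of -0.09 over both genotypes. Trim55 and the myosin chaperone Unc45b were lower in every WT HFHS mouse than in every WT CNTL mouse, with ranges for Trim55 of 36.2 to 39.4 on CNTL and 33.0 to 36.0 on HFHS, but neither was called (limma adjusted p = 0.114 and 0.52). In all, 4 of the 39 tested members did not overlap between the diets in WT, all lower on HFHS, where 4.51% of all genes did not overlap. In GPx4+/- there were 3, 2 lower and 1 higher, where the share of all genes was 4.47%.

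**Figure D4:**
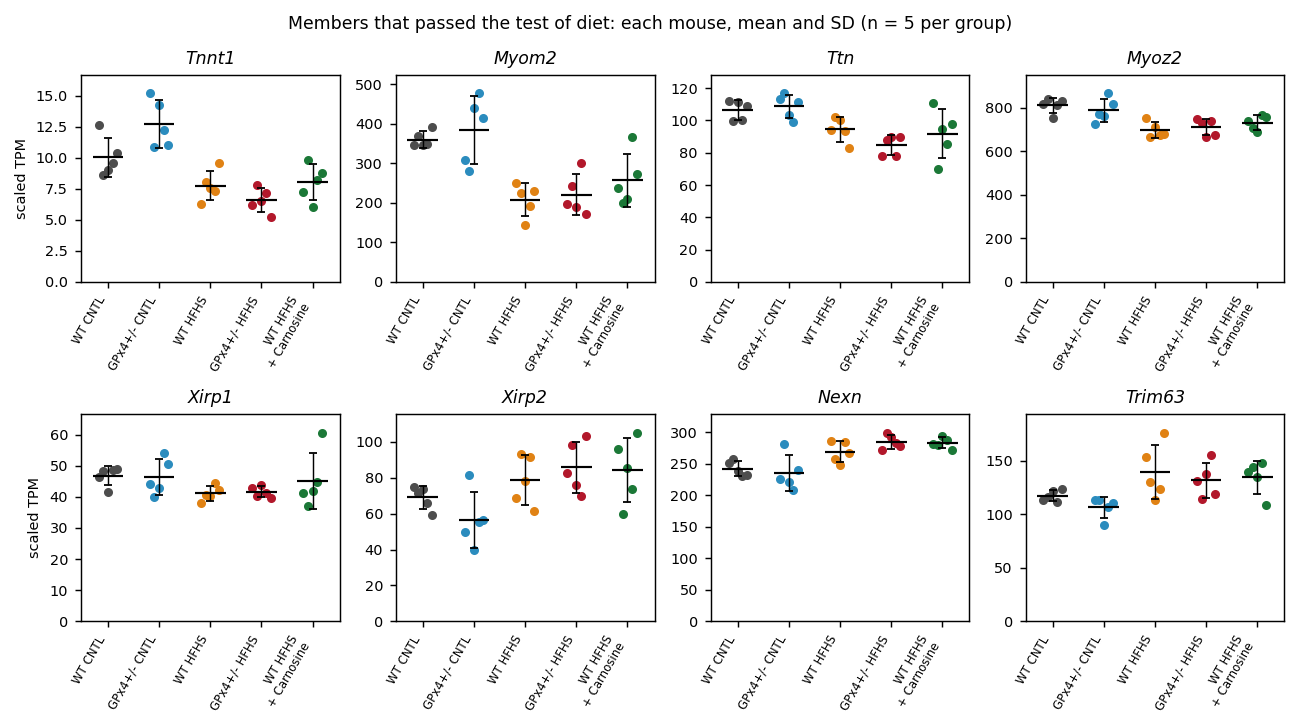
Scaled TPM (vertical axes, from 0) of the 8 genes called for diet over both genotypes, with each mouse as a point, the group mean as a bar and the SD as whiskers (n = 5 per group). Tnnt1, Myom2, Ttn, Myoz2 and Xirp1 are lower on HFHS over both genotypes, and Xirp2, Nexn and Trim63 are higher. In GPx4+/- the Tnnt1 values of CNTL (10.9 or more) and HFHS (7.82 or less) are apart.

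The promoters of the called genes that the RefSeq table holds are shown so that the lower and the higher genes can be set side by side. Of the 40 genes 32 were matched, with 44 promoters, and Myom2, Nexn and Xirp1 were not among them. Each sequence runs 5′ to 3′ from 250 bases before the RefSeq start to 50 bases after it (GRCm38.p6). Capitals mark matches, on either strand, to CATTCC (the M-CAT element), TATAAA or the MEF2 site, the binding motif of a muscle transcription factor family. The first 3 genes were lower on HFHS and the last 2 higher.
Tnnt1, chr7:4515926-4516225, minus strand: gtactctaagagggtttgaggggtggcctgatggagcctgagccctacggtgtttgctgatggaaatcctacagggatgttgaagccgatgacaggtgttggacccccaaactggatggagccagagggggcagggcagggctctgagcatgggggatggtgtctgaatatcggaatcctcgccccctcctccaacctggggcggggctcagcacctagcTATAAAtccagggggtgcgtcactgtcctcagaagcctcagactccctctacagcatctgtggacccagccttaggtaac
Ttn, chr2:76982498-76982797, minus strand: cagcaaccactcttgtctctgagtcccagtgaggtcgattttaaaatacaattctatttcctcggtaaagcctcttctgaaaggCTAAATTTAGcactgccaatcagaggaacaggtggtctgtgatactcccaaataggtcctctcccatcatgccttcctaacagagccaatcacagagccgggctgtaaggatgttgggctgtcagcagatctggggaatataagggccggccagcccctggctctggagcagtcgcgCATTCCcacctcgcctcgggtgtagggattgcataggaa
Myoz2, chr3:123034938-123035237, minus strand: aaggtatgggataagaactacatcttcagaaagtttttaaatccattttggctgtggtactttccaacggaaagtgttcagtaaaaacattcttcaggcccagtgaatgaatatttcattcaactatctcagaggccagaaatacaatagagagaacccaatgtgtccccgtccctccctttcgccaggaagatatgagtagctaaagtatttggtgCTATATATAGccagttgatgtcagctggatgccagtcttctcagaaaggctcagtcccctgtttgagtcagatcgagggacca
Xirp2, chr2:67445752-67446051, plus strand: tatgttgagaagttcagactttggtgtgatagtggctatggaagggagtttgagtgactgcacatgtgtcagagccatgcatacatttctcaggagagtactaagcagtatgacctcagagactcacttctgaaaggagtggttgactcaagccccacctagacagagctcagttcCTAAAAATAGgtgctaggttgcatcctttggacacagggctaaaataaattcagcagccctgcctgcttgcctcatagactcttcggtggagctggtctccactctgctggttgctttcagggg
Trim63, chr4:134314870-134315169, plus strand: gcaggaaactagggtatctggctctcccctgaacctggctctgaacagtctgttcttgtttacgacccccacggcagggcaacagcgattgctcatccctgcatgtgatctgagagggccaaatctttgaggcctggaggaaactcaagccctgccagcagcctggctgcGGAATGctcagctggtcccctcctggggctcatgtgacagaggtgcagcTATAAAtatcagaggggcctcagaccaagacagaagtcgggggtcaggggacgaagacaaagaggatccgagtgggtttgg

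A MEF2 site was found in the promoters of Ttn, Myoz2 and Xirp2, so it occurred on both sides of the split by direction. It was present in 4 of the 44 promoters of the set, or 9.09%, and in 0.557% of all 32851 promoters of the table. CATTCC was present in 27.3% of the set's promoters and 14.7% of all, and the CArG box, the site of serum response factor, in 15.9% and 1.63%. TATAAA was as frequent in the set as in the whole table, at 13.6% in each. The E-box, CANNTG, was in 81.8% and 72.3%. The set was defined by muscle function, and these shares describe letters in 300-base windows, not binding.

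No member was called between genotypes. On CNTL 9 of the 39 members had an unadjusted p under 0.05, 8 of them lower in GPx4+/-, where 6.28% of all genes passed that limit and 0.0501% were called. Those with the smallest p were Myot, Ldb3 and Fhl2. Myot, the Z-disc protein myotilin, had 59.1, 53.2, 69.5, 54.3 and 41.5 scaled TPM in WT CNTL and 18.9, 44.6, 7.26, 36.8 and 36.5 in GPx4+/- CNTL. A single GPx4+/- mouse reached into the WT range. In GPx4+/- the average was thus 51.9% of that in WT (log2 fold change -1.16, SE 0.357, limma adjusted p = 0.702), and without GPx4+/- CNTL 3, the lowest mouse, the log2 fold change was -0.74. Ldb3 had a log2 fold change of -0.17 and Fhl2 of -0.26 in the same comparison.

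On HFHS 1 member had an unadjusted p under 0.05 between genotypes, where 4.57% of all genes did and 0.0501% were called. It was Ttn, with a log2 fold change of -0.16, followed by Tnnt1 (-0.22) and Obsl1 (-0.12), a cytoskeletal adaptor. Over both diets 2 members passed, Myot (-0.58) and Fhl2 (-0.15), against 3.9% of all genes with 0.0584% called, and Ldb3 was next (-0.07).

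The difference between the diet effects of the 2 genotypes was tested as an interaction. It was called for 0 members and 0 genes (0%) by limma, and 6 members had an unadjusted p under 0.05, where 7.14% of all genes did. Tnnt1 had the smallest p, with a diet effect 0.55 lower on the log2 scale in GPx4+/- than in WT (log2 difference -0.55, SE 0.173, limma adjusted p = 0.664). Ldb3 and Smyd1, a methyltransferase needed for myosin assembly, followed at 0.19 and 0.20. The calls of Tnnt1, Ttn, Nexn and Xirp2 in GPx4+/- alone are therefore not shown to differ from WT.

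Carnosine in WT mice on HFHS changed no member past the threshold. Log2 fold changes ran from -0.60 to 0.29 with a median of 0.01, beside -0.001 over all genes. Of all genes 0 (0%) were called by limma and 4.21% had an unadjusted p under 0.05, among them 1 member. It was Nebl, nebulette, a cardiac relative of nebulin at the Z-disc, with 82.8, 91.5, 86.2, 75.1 and 92.4 scaled TPM in WT HFHS and 101, 89.6, 93.0, 95.6 and 102 in WT HFHS + Carnosine. These ranges overlapped (log2 fold change 0.17, SE 0.065, limma adjusted p = 0.947). Tpm2 (-0.60) and Trim55 (0.09) had the next smallest p. The Tpm2 value ran from -0.79 to -0.37 with 1 mouse left out, and WT HFHS 4, the mouse with the most Tpm2, also had the most of the smooth muscle marker Tagln (163.6 scaled TPM). For the genes called for diet, the mean in WT HFHS + Carnosine was 8.05 scaled TPM for Tnnt1, 256.9 for Myom2, 91.7 for Ttn and 282.9 for Nexn, beside 7.78, 208.5, 94.7 and 268.6 in WT HFHS. For Myoz2 it was 731.1, for Xirp1 45.2, for Xirp2 84.1 and for Trim63 134.9, beside 697.1, 41.1, 78.8 and 139.5. The carnosine mice were widely spread for some of them, from 198.6 to 366.4 for Myom2 and from 70.3 to 110.9 for Ttn.

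Against WT CNTL, the carnosine mice on HFHS showed 14 members with an unadjusted p under 0.05, 3 higher and 11 lower, where 13.1% of all genes passed that limit and 0.234% were called. No member was called. Nexn came nearest, with every carnosine mouse (271.4 to 294.0 scaled TPM) above every WT CNTL mouse (230.1 to 257.7) and a log2 fold change of 0.23 (SE 0.046, limma adjusted p = 0.0754). Myom2 had -0.52 and Nebl 0.18 in this comparison, with limma adjusted p of 0.15 and 0.164. Nebl also lay wholly above WT CNTL and Unc45b wholly below it. The share of all genes without overlap was not computed for this comparison. With array weights, which let noisier libraries count less, Nexn and Myom2 were called. The share of all genes called with array weights is not given, so these calls stand without that background. This comparison shares its WT CNTL mice with the diet comparison in WT.

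Of 44 other genes of the sarcomere, the Z-disc and its chaperones listed beside the set, 37 were tested, and 8 were called for diet over both genotypes, 5 higher and 3 lower, where 8.33% of all genes were called, 4.68% as higher and 3.65% as lower. Myh6, the main myosin heavy chain of the adult mouse heart, had a log2 fold change of -0.18 and Mylk3, the cardiac kinase of Myl2, of -0.25. The higher genes included the chaperone pair Bag3 (0.25) and Hspb8 (0.32), which clear damaged filamin at the Z-disc, Fhl1 (0.44), the titin-binding Ankrd23 (0.73) and Klhl41 (0.33), an adaptor that steadies thin filament proteins. Adjusted p of these genes ran from 0.000601 to 0.049 from limma. In WT 1 of the 37 was called, Fhl1, where 1.18% of all genes were. In GPx4+/- 6 were called, all higher, Nrap being the one not named above, where 3.34% of all genes were called and 2.18% as higher. Between genotypes, for the interaction, for carnosine and for HFHS + Carnosine against CNTL, 0 of the 37 were called.

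No share of a gene's transcripts differed between groups past the threshold. In 21 of the 40 genes 1 transcript held over 90% of the gene's TPM. For Ttn the leading transcript was Ttn-201, of 81999 bases and 192 exons, with a mean share of 78.7%, followed by Ttn-202 with 11.7%. Tnnt2 was divided among Tnnt2-211 (43.7%), Tnnt2-201 (20.2%) and Tnnt2-206 (13.4%). Shares between 10% and 90% were tested for 42 transcripts of 18 genes, with a two-sided exact permutation test within genotype or within diet over the 20 mice without carnosine. After adjustment over the 42, 0 passed for diet and 0 for genotype, and 4 and 1 had an unadjusted p under 0.05. The smallest was for Nexn-216, whose share was 34.8% ± 1.68 in WT and 34.3% ± 1.83 in GPx4+/- on CNTL, against 37.1% ± 1.73 in WT and 36.6% ± 1.1 in GPx4+/- on HFHS (SD, n = 5 mice each) (exact permutation p = 0.00403, adjusted p = 0.169). Tnnt1-203 had a mean share of 28.7% in WT CNTL, 15.8% in WT HFHS and 10.1% with carnosine, but its SD lay between 7.14 and 10.8 points and its diet test gave an exact permutation p of 0.061. Transcripts of a gene, and the related tropomyosin and troponin genes, share sequence, so these shares are estimates by the authors' quantification.

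A few members varied with markers of other cell types. Tnni1 was at 0.309, 0.419, 0.344 and 0.314 scaled TPM in 4 WT CNTL mice and 2.06 in WT CNTL 3. It was 1.49 in GPx4+/- HFHS 4, where the other mice had at most 0.219, and 0.811 in GPx4+/- CNTL 1, where the others had at most 0.246. These 3 mice had 1707, 886.8 and 1499 scaled TPM of Myl7. All 6 atrial markers were detected over the series, and their summed level ran from 30.7 to 7462 scaled TPM. GPx4+/- CNTL 2, with 338.5 of Myl7, had the lowest Tnni1 of all, 0.0442. Whether atrial tissue accounts for the Tnni1 values was not tested.

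Tpm2, the beta-tropomyosin of slow skeletal and smooth muscle, had 20.3, 42.9, 23.2, 66.6 and 39.5 scaled TPM in WT HFHS. The highest value, in WT HFHS 4, stood beside 163.6 of Tagln, 282.9 of Acta2 and 48.2 of Myh11, each the highest of the 25 mice for these smooth muscle markers. Over the 25 mice log2 Tpm2 and log2 Tagln had a Pearson r of 0.896 and a Spearman rho of 0.836 (each permutation p = 1e-05, the smallest the 100000 permutations can give, adjusted p = 2e-05 over 4 relations). With the mean of each group taken away r was 0.879, and without the 2 mice farthest from the median of Tagln it was 0.811. Pdlim3, an alpha-actinin binding LIM protein, followed Tagln less closely (r = 0.592 with permutation p = 0.00202, rho = 0.468 with permutation p = 0.0194, adjusted p = 0.00269 and 0.0194, and r = 0.413 without the 2 farthest mice). Pdlim3 shared its highest mouse with Tagln in 1 of 5 groups and Tpm2 in 3. Elsewhere Tpm2 was highest in WT CNTL 3 and GPx4+/- CNTL 1, both high in Myl7. Pdlim3 was highest in WT CNTL 3 (15.4 scaled TPM), GPx4+/- CNTL 1 (16.9), GPx4+/- HFHS 4 (15.2) and WT HFHS + Carnosine 2 (12.0). These mice had the most Myl7 of their groups. The part of atrial tissue in these values was not tested. The relations with Tagln were not planned, and the adjustment over 4 does not cover the choice of these genes and this marker from longer lists. The summed level of the 6 smooth muscle markers was 168.3 to 213.6 scaled TPM in WT CNTL and 197.9 to 634.5 in WT HFHS, and their part in the log2 fold changes of Tpm2 (0.52) and Pdlim3 (0.46) in WT, neither of them called, was not tested.

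**Figure D5:**
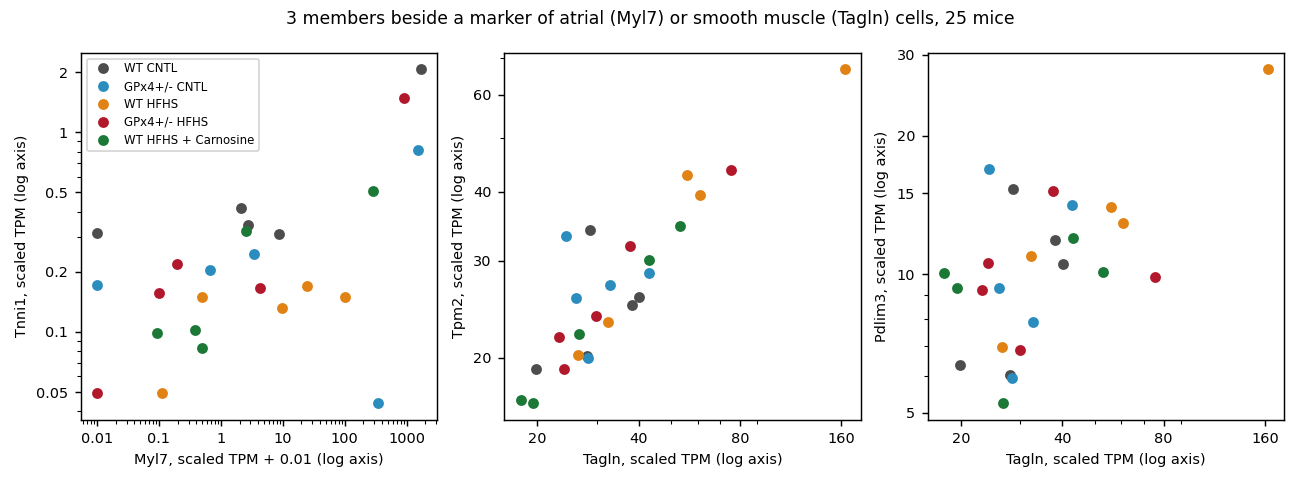
Scaled TPM, on log axes, of Tnni1 against Myl7 (with 0.01 added) and of Tpm2 and Pdlim3 against Tagln in the 25 mice, coloured by group. The 3 highest Tnni1 values (2.06, 1.49 and 0.811) lie at Myl7 of 886.8 or more, and the highest Tpm2 (66.6) lies at the highest Tagln (163.6), in WT HFHS 4.

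Single mice also carried many of the extreme values. GPx4+/- CNTL 3 was the lowest of its group for 16 of the 40 genes, with 748 scaled TPM of Mybpc3, 7.26 of Myot, 50.3 of Flnc (filamin C, an actin cross-linker of the Z-disc) and 39.6 of Xirp2. WT CNTL 3 and GPx4+/- HFHS 5 were each lowest for 16 genes as well. WT HFHS + Carnosine 2 had the lowest Ttn of all mice, 70.3, and the lowest Myh7b, 5.01, and WT HFHS + Carnosine 5 had the highest Flnc and Xirp1, 123 and 60.6.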

How the data were processed

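The authors deposited TPM per transcript from left ventricular poly(A) RNA (stranded paired-end libraries). Per the labels, the submitters' processing notes name kallisto 0.43.1, sleuth 0.30.0 and GRCm38, while the study's methods describe STAR and DESeq2 on counts, so limma on log values took the place of that test. Columns were matched to mice by library name. TPM were summed over 116772 of 119215 transcripts matched to GENCODE M21 genes, scaled by median ratios over 11879 genes, and tested in limma 3.58.1 (R 4.3.3, empirical Bayes with trend). The 20 mice without carnosine were fitted as 4 groups, and comparisons with carnosine on their 10 mice. TPM keeps no depth. The scripts were tested on simulated data. The labels give replicate numbers only, and the replicates were taken as separate mice, 5 per group as in the paper. On that footing the p-values measure the spread between these mice. WT CNTL 2 and 4 were near equal for some scarce genes. Cntn2 was 8.05 and 8.01 scaled TPM there, beside 0.564, 12.9 and 3.25 in WT CNTL 1, 3 and 5. Pvalb was 3.10 and 3.02, beside 0, 1.38 and 0.525. Whether WT CNTL 2 and 4 stem from separate hearts was not tested.

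Named were all members called, the 3 with the smallest p where none was, the 10 most abundant, those under the filter and those with an isolated mouse. Other members were named after their values were seen. Members and lists were chosen with earlier results of these data known. The fits were repeated on TPM as deposited, after quantile normalization, with array weights, with the replicate number as a block, with all 25 mice together, with each mouse left out, with no minimum level or one of 5, and with 0.1 as pseudocount. Leaving out the 5 mice with Myl7 over 100, and each mouse in turn for transcript shares, was added after seeing the data. The relations of Tpm2 and Pdlim3 with Tagln were not planned either. The values of 1 other sarcomere gene are not reported here.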

Additional observations from a re-analysis of the deposited data

Results flagged for a closer look

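In 8 of 205 groups of 5 values (the 40 genes and their summed share in 5 groups) 1 mouse lay apart from the other 4 by more than Dixon's 95% limit for its gap as a share of the range, where chance gives about 1 in 20, or 10.2. For Tnni1 the isolated mouse was the highest in WT CNTL 3 (gap 0.938 of the range, 2.06 scaled TPM against at most 0.419), GPx4+/- HFHS 4 (0.882) and GPx4+/- CNTL 1 (0.737), the mice with the most Myl7 in their groups. Myl3 was highest in GPx4+/- HFHS 1 (0.774, 6434 scaled TPM against at most 5768), Tcap in WT CNTL 5 (0.725, 2519 against at most 2152) and Ldb3 in WT HFHS 3 (0.774, 680.8 against at most 622.0). Unc45b was lowest in WT HFHS + Carnosine 3 (0.809, 111.8 against at least 125.3), and Fbxo32 was highest in WT HFHS + Carnosine 4 (0.748, 21.7 against at most 16.8). No member passed the test of a difference between the diet effects of the genotypes.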

How the results depend on the processing

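TPM keeps no counts, so what depth limits could not be given. Of the recomputed counts and medians 436 stayed within their limits and 32 moved; of the values of single genes 1356 kept direction and side of the threshold, 70 lost a call, 17 gained one and 5 turned sign, and the cause was not tested. Members called for diet in WT numbered 0 with no filter (25881 genes tested, 0.166% called) and 1 with TPM as deposited (0.317% of all genes called). With the replicate block the number was 1 (68 of 11984 genes called), against 2 with the main settings (1.18% of all genes). Over both genotypes 5 were called with no filter (2.79% of all genes), against 8 (8.33%). For HFHS + Carnosine against CNTL 2 were called with array weights (share of all genes not given), against 0. With TPM as deposited the median log2 fold change of the members was -0.114 for diet in GPx4+/-, -0.094 over both genotypes, -0.060 for genotype on HFHS, -0.031 for the interaction, -0.060 for carnosine and -0.145 for HFHS + Carnosine against CNTL. Of the 424 genes called there in GPx4+/-, 8.73% were higher. Single genes that turned sign for diet over both genotypes, none of them called, were Tnnc1 (0.012 with quantile normalization), Cryab (-0.020 with TPM as deposited, and -0.008 to 0.057 with each mouse left out) and Csrp3 (-0.006 with TPM as deposited, -0.002 without the mice high in Myl7). With each mouse left out, the members called ranged from 0 to 2 for diet in WT, 3 to 6 in GPx4+/-, 6 to 9 over both genotypes and 0 to 1 for HFHS + Carnosine against CNTL (1 without carnosine mouse 4), and were 0 in the other comparisons. The share of all genes called in these fits is not given. Medians ranged from -0.100 to -0.064, -0.034 to 0.009 and -0.058 to -0.027 for the diet comparisons, -0.091 to -0.049, -0.009 to 0.031 and -0.053 to -0.028 for genotype on CNTL, on HFHS and over both, 0.061 to 0.111 for the interaction, -0.012 to 0.034 for carnosine and -0.099 to -0.068 for HFHS + Carnosine against CNTL. Transcript shares past the threshold ranged from 0 to 1 for diet (1 without GPx4+/- CNTL 2 or GPx4+/- HFHS 2). Same-numbered mice showed no common deviation (correlations from -0.341 to 0.234). This cannot exclude a pairing, and the labels do not say what the numbers mean. With the replicate block the same 5 and 8 members were called in GPx4+/- and over both genotypes.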
